A study of Mus musculus with 20 samples.

Results

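Matrix metalloproteinases, their tissue inhibitors and the ADAMTS proteases are the enzymes and inhibitors that cut and protect the extracellular matrix. The genes described here are all those whose symbol in the deposited table begins with Mmp, Timp or Adamts followed by a digit. They number 46 of the 25219 genes listed, with 23 Mmp genes, 4 Timp genes and 19 Adamts genes. The rule reads the symbol alone, although the families were picked with earlier results of these data known. RNA was read from inguinal white adipose tissue (iWAT) and brown adipose tissue (BAT) of male mice 1 week after recombination. Each tissue gave 5 Control and 5 Ai-α4KO libraries. Both groups received 5 tamoxifen injections over 6 days from 2 months of age. Ai-α4KO mice carry floxed alleles of Igbp1, the gene of the phosphatase-binding protein α4, together with the Adiponectin-CreERT2 transgene. Control mice carry the floxed alleles without the transgene, although the labels call them WT. The Adiponectin promoter directs recombination to adipocytes, whereas the RNA comes from whole tissue with all its cell types.

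Metalloproteinases are made as inactive precursors and are secreted or held at the cell surface. Together they can degrade collagens, elastin, laminin and proteoglycans, and they also cut cytokines and receptors. TIMP proteins bind the active enzymes and block them. ADAMTS proteases trim procollagens or cut proteoglycans such as versican and aggrecan. In adipose tissue these enzymes and inhibitors are known for remodelling the matrix around adipocytes as a depot grows, shrinks or is inflamed, and stromal cells and macrophages make many of them.

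Libraries held between 24023371 and 50384446 counts. Igbp1 was lower in Ai-α4KO libraries of both depots without overlap of the genotypes (log2 fold change -2.65 in iWAT, -2.50 in BAT), as the labels say. Adipocyte markers were present in all groups, and the summed level of 6 brown adipocyte markers was 7900 to 12200 CPM (normalized counts scaled to a common library total) in Control BAT against 126 to 940 CPM in Control iWAT. Some iWAT libraries held markers of other tissues. The summed B cell markers reached 446 and 178 CPM in Control iWAT libraries 1 and 4, against 5.56 to 7.44 CPM in the other Control iWAT libraries. Summed skeletal muscle markers reached 7630 CPM in Control iWAT library 4 and 5450 CPM in Ai-α4KO iWAT library 1, against 23.5 to 217 CPM in the other iWAT libraries. Epithelial markers ran from 22.7 to 104 CPM in Control iWAT libraries 1 and 4 and Ai-α4KO iWAT libraries 1 and 2. In BAT the muscle markers separated the genotypes, with 1030 to 9660 CPM in Control and 13700 to 46700 CPM in Ai-α4KO libraries.

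The first question was which of these genes differed between Ai-α4KO and Control mice in each depot. A gene was called when its adjusted p was below 0.01 and its change at least 2-fold, and changes are given on the log2 scale with their standard error (SE). In iWAT 36 genes had enough counts to be tested, and 7 were called higher in Ai-α4KO (19.4%, against 11.3% of all genes tested) and 6 lower (16.7%, against 10.7% of all genes). The risers were the inhibitor Timp1 and the proteases Mmp3, Mmp10, Mmp12, Mmp13, Mmp19 and Mmp25. Timp3, Timp4, Mmp15, Mmp17, Mmp28 and Adamts12 fell. In BAT 34 genes were tested, and 16 were called higher (47.1%, against 18.2% of all genes) and 4 lower (11.8%, against 13.3% of all genes). The 16 comprised Timp1 and Timp2, the Mmp genes 3, 8, 9, 12, 13, 14, 19, 25 and 27, and the Adamts genes 4, 5, 14, 15 and 19. Timp3, Timp4, Mmp11 and Mmp17 fell in BAT. Mmp10 in iWAT and Adamts19 in BAT passed the filter on counts through the Ai-α4KO libraries alone, so their calls are given as counts and not as support. Without genes of that kind, 6 of 35 were higher in iWAT (17.1%, against 11% of all genes) and 15 of 33 in BAT (45.5%, against 16.8%). Mmp8, Mmp25 and Mmp27 in BAT and Mmp25 in iWAT reached the filter level in all 5 Ai-α4KO libraries and in 1 to 4 Control libraries, and Mmp17 in iWAT in 5 Control and 3 Ai-α4KO libraries.

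The genes that rose in both depots numbered 6, namely Timp1, Mmp3, Mmp12, Mmp13, Mmp19 and Mmp25, and 3 fell in both, namely Timp3, Timp4 and Mmp17. Of the 34 genes tested in both, that is 17.6% higher (against 9.49% of all genes) and 8.82% lower (against 7.71% of all genes). The median log2 fold change of the genes tested was 0.28 in iWAT and 0.65 in BAT, beside 0.015 and -0.032 for all genes tested. The libraries of the genotypes did not overlap for 13 genes in iWAT (36.1%, against 39% of all genes) and for 19 in BAT (55.9%, against 47.6% of all genes). Without the 4 iWAT libraries that held markers of other tissues, 7 genes were still called higher and 6 lower in iWAT. Mmp19 left the higher genes in that fit, with a fold just under the limit, and Adamts4 entered them. Without Ai-α4KO iWAT library 2 alone, 3 genes were called lower, and with library sizes in place of TMM factors 2 were. With the B cell marker score as a covariate in iWAT, 7 genes were called higher and 4 lower, and Mmp17 (-1.70, adjusted p = 0.016) and Mmp28 (-0.96, adjusted p = 0.01) lost their call. With the muscle marker score as a covariate in BAT, 10 of the 16 higher genes remained, and Adamts5, Adamts14, Adamts19, Mmp9, Mmp13 and Timp2 did not. The log2 fold changes of those lost were 2.38 for Mmp9, 1.08 for Adamts14, 0.89 for Adamts5, 0.86 for Timp2 and 0.83 for Mmp13 in that fit, with adjusted p of 0.0168, 0.114, 0.0143, 0.0484 and 0.172, and Adamts19 had an adjusted p of 0.0732. That fit moved the BAT log2 fold changes of Timp1 to 6.26, Adamts4 to 4.30, Mmp25 to 3.62 and Timp4 to -1.72. Whole tissue was measured, so a fall or rise in the number of cells of a type cannot be told apart from less or more RNA per cell.

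**Figure D1:**
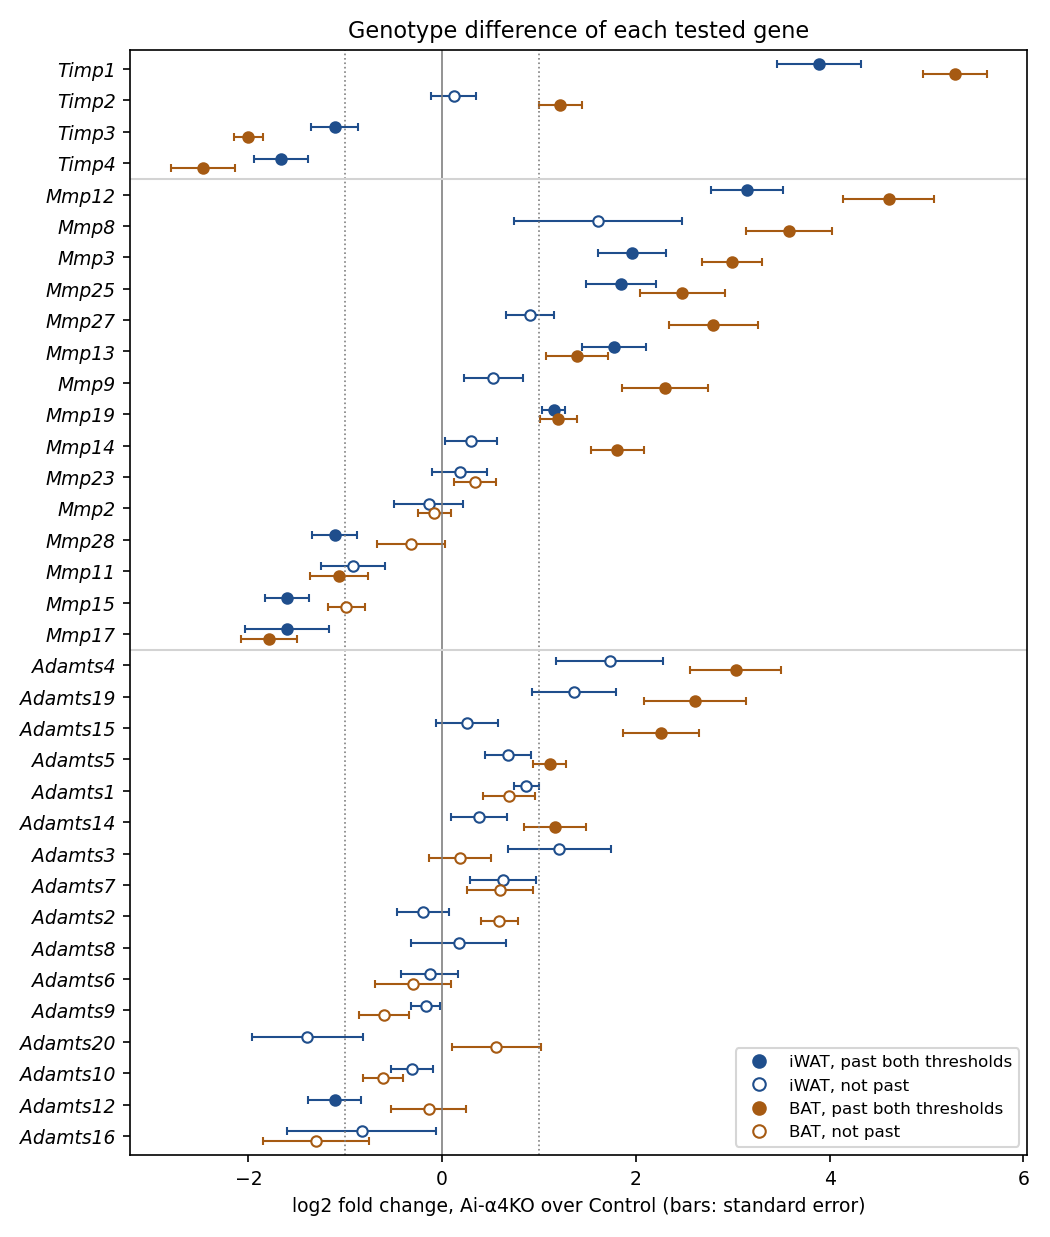
The log2 fold change of Ai-α4KO over Control, with its standard error, is plotted for each tested gene in iWAT (blue) and BAT (brown), grouped as Timp, Mmp and Adamts genes. Filled points are past both thresholds, dotted lines mark the 2-fold limits, and Timp1 lies farthest to the right at 3.89 in iWAT and 5.29 in BAT. Mmp10 is not drawn because its Control libraries held at most 1 count, and the BAT point of Adamts19 rests on at most 4 counts per Control library.

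Markers of other cell types moved with genotype. All 10 macrophage markers rose in both depots, and their summed level went from 1360 to 2330 CPM in Control to 8080 to 10900 CPM in Ai-α4KO iWAT, and from 272 to 626 CPM to 4670 to 7830 CPM in BAT. Of the neutrophil markers, 4 of 6 tested rose and 1 fell in iWAT, and 5 of 5 rose in BAT. Their summed level was 20.8 to 114 CPM in Control iWAT against 145 to 480 CPM in Ai-α4KO iWAT, and 12.1 to 35.3 CPM against 199 to 359 CPM in BAT. Adipocyte markers fell, 10 of 12 in iWAT and 9 of 12 in BAT. Brown adipocyte markers fell as well, 5 of 6 in iWAT and 2 of 6 in BAT. Of 8 fibroblast and progenitor markers, 1 rose in iWAT and 3 rose in BAT. Their sum overlapped in iWAT, at 1800 to 3050 CPM in Control against 1870 to 4050 CPM in Ai-α4KO. In BAT it separated the genotypes, at 840 to 1260 CPM against 1760 to 2250 CPM. Endothelial markers fell, 3 of 6 in iWAT and 4 of 6 in BAT, with summed levels of 400 to 523 CPM in Control against 231 to 279 CPM in Ai-α4KO iWAT, and 757 to 1080 CPM against 295 to 387 CPM in BAT. Of 6 mural cell markers, 2 fell in each depot, and their sum was 285 to 356 CPM against 115 to 276 CPM in iWAT and 362 to 423 CPM against 145 to 210 CPM in BAT. In BAT 5 of 6 mast cell markers rose and Kit fell, with summed mast cell markers at 29.5 to 62.3 CPM in Control against 84.2 to 135 CPM. There 4 of 6 T cell markers rose, with a sum of 2.58 to 5.47 CPM against 17.3 to 58.5 CPM. In iWAT Kit also fell, and the summed T cell markers overlapped at 9.91 to 207 CPM in Control against 22.3 to 56.8 CPM in Ai-α4KO libraries. Of the B cell markers 1 of 5 fell in iWAT and 1 of 3 rose in BAT, and 1 epithelial marker, the only one tested, rose in BAT. The part of these cell types in the changes of the protease and inhibitor genes was not tested.

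The 4 inhibitors moved in different directions. Timp1, the inducible member of the family, lies on chromosome X from 20870166 to 20874737 on the plus strand (mm10). It stood at 5.97, 4.69, 4.62, 1.71 and 1.82 CPM in the Control iWAT libraries and at 86.1, 71.2, 55.2, 38.2 and 30.3 CPM in Ai-α4KO iWAT. In BAT its values were 3.64, 1.64, 2.13, 1.62 and 1.23 CPM in Control and 92.2, 100, 54.9, 55.3 and 106 CPM in Ai-α4KO. The lowest Ai-α4KO library of each depot was thus far above the highest Control library. Its log2 fold change was 3.89 in iWAT (SE 0.43, adjusted p = 2.61e-05) and 5.29 in BAT (SE 0.33, adjusted p = 1.25e-07). The gene lies inside Syn1, which is on the opposite strand and whose exons do not meet those of Timp1. Syn1 counts rose as well, with log2 fold changes of 3.67 in iWAT and 4.58 in BAT. Whether the counting used strand is not given in the sources used here, and the part of reads shared between both genes was not tested. Syn1 held at most 41 counts in a Control iWAT library and 878 in an Ai-α4KO iWAT library, where Timp1 held at least 59 and 1169.

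Timp3, the inhibitor that is bound to the matrix and also blocks ADAM17 and ADAMTS proteases, fell in both depots. It stood at 380, 448, 428, 388 and 443 CPM in Control iWAT and at 243, 103, 139, 213 and 273 CPM in Ai-α4KO iWAT. In BAT it stood at 670, 651, 438, 613 and 597 CPM in Control and at 134, 142, 168, 180 and 138 CPM in Ai-α4KO. All Ai-α4KO libraries were below all Control libraries in each depot. Ai-α4KO over Control gave a log2 value of -1.11 in iWAT (SE 0.24, adjusted p = 0.0021) and -2.0 in BAT (SE 0.15, adjusted p = 3.63e-07). Without Ai-α4KO iWAT library 2, the lowest of its group, the iWAT log2 fold change was -0.94 and no longer reached 2-fold. Timp3 lies inside Syn3, on the opposite strand, with 1 pair of overlapping exons. Syn3 had log2 fold changes of -0.40 in iWAT and -1.21 in BAT and was called in neither. It held at most 59 counts in an Ai-α4KO iWAT library, where Timp3 held at least 4515. In Ai-α4KO BAT these were 39 and 3921 counts.

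Timp4, a TIMP of restricted expression that is prominent in heart and fat, also fell. Its Control iWAT values of 133, 76.9, 142, 67.0 and 64.3 CPM were all above the Ai-α4KO iWAT values of 49.3, 26.2, 27.6, 25.8 and 24.4 CPM. In BAT the Control values were 303, 181, 138, 205 and 162 CPM, and the Ai-α4KO values were 51.7, 36.4, 55.0, 21.5 and 18.4 CPM. The genotypes were again separate in each depot. On the log2 scale its change was -1.66 in iWAT (SE 0.28, adjusted p = 0.000523) and -2.47 in BAT (SE 0.33, adjusted p = 4.12e-05). Timp4 lies inside Syn2, on the opposite strand, with 2 pairs of overlapping exons, and Syn2 had log2 fold changes of -1.33 and -1.69. Syn2 held at most 838 counts in a Control iWAT library, where Timp4 held at least 2195. In Ai-α4KO BAT these were 291 and 523 counts. The part of reads shared between Timp4 and Syn2 was not tested.

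Timp2, which inhibits MMP2 and also helps MMP14 to activate it, was called in BAT and not in iWAT. In iWAT the Control libraries ran from 320 to 583 CPM and the Ai-α4KO libraries from 268 to 654 CPM. They overlapped, and the log2 fold change of 0.12 did not pass (SE 0.23, adjusted p = 0.69). In BAT the Control values were 66.7, 137, 90.5, 162 and 88.2 CPM and the Ai-α4KO values 225, 323, 218, 264 and 273 CPM. These did not overlap, with a log2 fold change of 1.22 (SE 0.22, adjusted p = 0.00051). The Timp2 call in BAT was lost when the muscle marker score, which separates the genotypes in BAT, entered the fit.

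**Figure D2:**
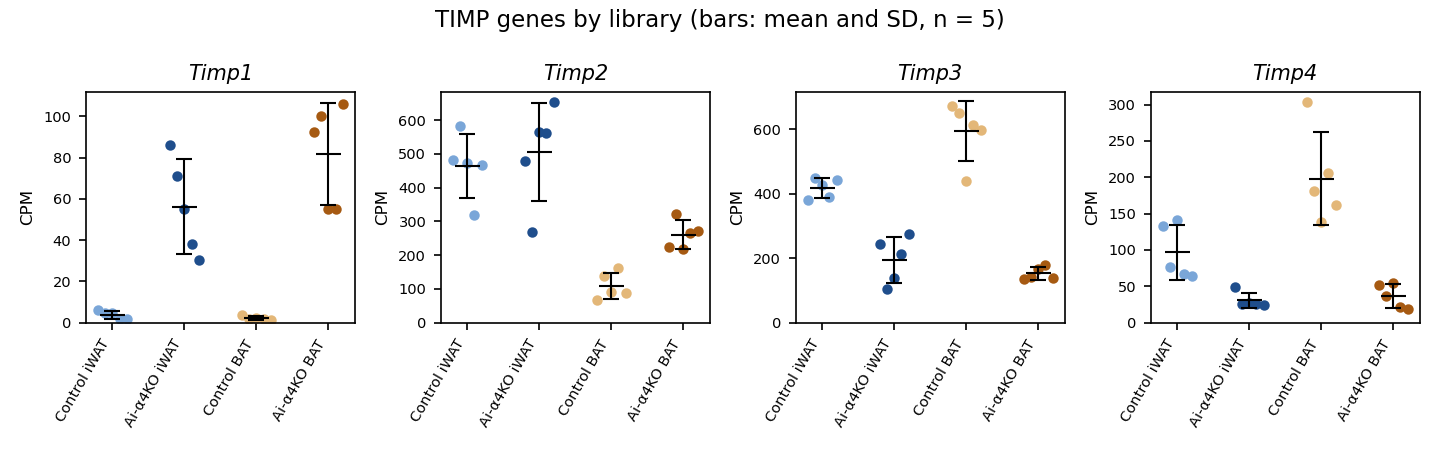
CPM of Timp1, Timp2, Timp3 and Timp4 is plotted by group, with 1 point per library and the mean and SD of 5 libraries as black bars. Timp1 rises and Timp3 and Timp4 fall in Ai-α4KO libraries of both depots without overlap, while Timp2 separates the genotypes in BAT.

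Compared per length as FPKM (the length-scaled values of the deposited table), the make-up of the TIMP transcripts shifted while their sum stayed within the spread of the libraries. The 4 genes summed to 260.0 ± 37.6 FPKM in Control iWAT, beside 260.7 ± 46.5 in the Ai-α4KO libraries of that depot (SD over 5 libraries). In BAT the sums were 232.5 ± 49.7 and 203.5 ± 36.1 FPKM, and the libraries overlapped in both depots. Timp1 made up 1.40% ± 0.58 of the sum in Control iWAT against 24.6% in Ai-α4KO iWAT, and 0.771% in Control BAT against 40.6% in Ai-α4KO BAT. The Timp3 share dropped from 31.3% ± 4.91 to 15.3% ± 3.95 in iWAT, and in BAT from 42.8% ± 3.92 to 15% ± 3.95. That of Timp4 dropped from 23.2% ± 6.71 to 8.15% ± 2.08 in iWAT, and in BAT from 46.1% ± 5.91 to 11.8% ± 5.85. Timp2 held 44.1% ± 4.90 and 52.0% ± 11.1 in iWAT, and 10.3% ± 3.52 and 32.5% ± 4.42 in BAT. Timp4 and Timp3 led the sum in Control BAT, and Timp1 and Timp2 led it in Ai-α4KO BAT.

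**Figure D3:**
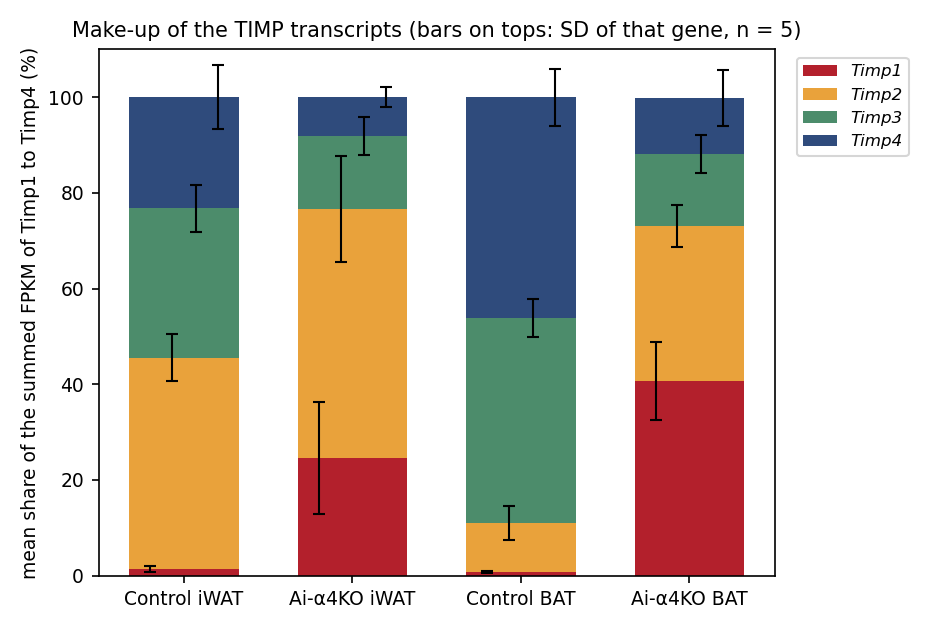
The mean share of each Timp gene in the summed FPKM of all 4 is stacked for each group, with the SD of each gene over 5 libraries drawn at the top of its segment. The red Timp1 segment is 1.40% and 0.771% in Control iWAT and BAT and 24.6% and 40.6% in the Ai-α4KO groups.

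A cluster of 10 Mmp genes lies on chromosome 9 from 7272514 to 7699416 (mm10), a span of 427 kb. In order they are Mmp13, Mmp12, Mmp1b, Mmp3, Mmp1a, Mmp10, Mmp8, Mmp27, Mmp20 and Mmp7. They encode stromelysins, collagenases, the macrophage elastase and matrilysin. In iWAT 6 of them could be tested and 4 rose (66.7%, against 11.3% of all genes), and in BAT all 5 that could be tested rose (100%, against 18.2%). One of the 4 is Mmp10, and without it 3 of 5 rose in iWAT. Of the 10 Mmp genes elsewhere that were tested, 2 rose and 3 fell in iWAT (20% and 30%, against 11.3% and 10.7% of all genes), while 4 rose and 2 fell in BAT (40% and 20%, against 18.2% and 13.3%). The median log2 fold change of the cluster's tested genes was 1.86 in iWAT (1.77 without Mmp10) and 2.99 in BAT, beside 0.02 and 0.13 for the tested Mmp genes elsewhere. Genes of 1 cluster are neighbours and paralogs, so they are not independent of each other.

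The sequence around the start sites was read from the RefSeq promoter table (GRCm38.p6), which held 32 of the 46 genes. Each window ran from 250 bases before to 50 bases after an annotated start. The AP-1 motif TGAGTCA, or TGACTCA on the other strand, was in 5.2% of all 32851 windows. It was present for 7 of the 10 cluster genes and for none of the 22 other genes with a window. The 14 genes without a window include Mmp9, Mmp19, Adamts4, Adamts5, Adamts15 and Adamts19, which rose in at least 1 depot and were not read. The 5.2% is a share of windows, and a gene can have more than 1 window. The TATA box letters TATAAA, or TTTATA on the other strand, were in 13.6% of all windows, in 9 of the 10 cluster genes and in 2 of the other 22. The NF-kB consensus was in 8.46% of all windows, in 1 of the 10 cluster genes (Mmp12) and in 4 of the other 22 (Mmp25, Adamts9, Adamts13 and Adamts20), and 1 fixed form of it that was searched first matched none of the 32 genes. Other motifs searched were TTCCGGAA for STAT and TTGCGCAA for C/EBP, with shares of 0.712% and 0.183% of all windows, and none of the 32 genes held them in these letters. A match describes the letters in the window, not the binding of a factor.

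The stretches from 120 bases before to 30 bases after the start are shown for the 6 cluster genes that rose in at least 1 depot, and for Mmp1a, which has the same motifs and no counts. All are on the plus strand, and capitals mark the AP-1 and TATA letters.
Mmp13, chr9:7272394-7272543: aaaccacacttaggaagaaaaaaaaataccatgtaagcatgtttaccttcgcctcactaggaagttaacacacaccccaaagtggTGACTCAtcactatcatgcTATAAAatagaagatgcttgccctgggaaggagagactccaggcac
Mmp12, chr9:7347254-7347403: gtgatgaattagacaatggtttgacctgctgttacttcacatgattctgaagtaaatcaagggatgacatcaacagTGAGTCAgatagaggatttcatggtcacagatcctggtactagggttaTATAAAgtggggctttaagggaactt
Mmp3, chr9:7445702-7445851: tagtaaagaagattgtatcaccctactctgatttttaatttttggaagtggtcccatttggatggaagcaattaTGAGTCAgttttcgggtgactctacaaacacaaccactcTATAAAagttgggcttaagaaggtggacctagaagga
Mmp10, chr9:7502222-7502371: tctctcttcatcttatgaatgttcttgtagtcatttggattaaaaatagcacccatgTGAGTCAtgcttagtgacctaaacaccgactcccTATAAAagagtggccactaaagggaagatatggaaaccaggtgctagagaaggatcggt
Mmp1a, chr9:7464021-7464170: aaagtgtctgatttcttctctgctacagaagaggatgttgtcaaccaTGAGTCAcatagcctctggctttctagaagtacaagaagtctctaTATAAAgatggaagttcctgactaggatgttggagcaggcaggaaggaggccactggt
Mmp8, chr9:7558309-7558458: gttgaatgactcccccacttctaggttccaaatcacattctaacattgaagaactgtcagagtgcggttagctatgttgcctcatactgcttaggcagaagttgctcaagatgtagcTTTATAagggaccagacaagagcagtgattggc
Mmp27, chr9:7571276-7571425: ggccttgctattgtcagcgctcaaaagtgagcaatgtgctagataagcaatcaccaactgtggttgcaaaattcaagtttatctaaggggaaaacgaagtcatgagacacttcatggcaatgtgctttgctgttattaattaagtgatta
The AP-1 letters began 35 bases before the start in Mmp13, 44 in Mmp12, 46 in Mmp3, 63 in Mmp10 and 73 in Mmp1a. Mmp8 and Mmp27 rose in BAT without them, and Mmp8 kept the TATA letters on the other strand. Mmp12 has a second window farther upstream that held neither motif. Mmp1a and Mmp1b hold both motifs and had no count in any of the 20 libraries.

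Mmp12, the macrophage metalloelastase, had the largest log2 fold change of the Mmp genes tested in both depots, in each of them. It stood at 16.5, 8.30, 6.50, 3.79 and 6.04 CPM in Control iWAT and at 112, 63.3, 73.7, 53.3 and 64.8 CPM in Ai-α4KO iWAT. In BAT the values were 7.38, 2.82, 2.63, 5.33 and 3.66 CPM in Control and 39.7, 58.0, 108, 167 and 174 CPM in Ai-α4KO. No library of one genotype reached the other, and the Ai-α4KO BAT libraries were spread from 39.7 to 174 CPM. The log2 fold change was 3.15 in iWAT (SE 0.37, adjusted p = 4.29e-05) and 4.61 in BAT (SE 0.47, adjusted p = 5.23e-06). These rises stood beside those of the macrophage markers given above.

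Mmp3, or stromelysin-1, cuts proteoglycans, laminin and the precursors of other MMPs. Control iWAT libraries held 66.4, 85.0, 61.1, 23.4 and 28.9 CPM and Ai-α4KO iWAT libraries 134, 253, 238, 250 and 157 CPM. Control BAT libraries held 6.37, 14.5, 9.02, 15.5 and 5.10 CPM and Ai-α4KO BAT libraries 83.5, 99.6, 97.7, 79.0 and 51.2 CPM. The genotypes did not overlap, and the Ai-α4KO BAT libraries reached the range of Control iWAT. Ai-α4KO over Control gave a log2 value of 1.96 in iWAT (SE 0.35, adjusted p = 0.000731) and 2.99 in BAT (SE 0.31, adjusted p = 5.87e-06). With 112.0 ± 29.98 FPKM (SD, n = 5), Mmp3 was second to Timp2 among the 46 genes in Ai-α4KO iWAT, and it was the fifth in Control iWAT at 26.4 ± 13.3 FPKM. Timp2, at 137 ± 39.5 FPKM in Ai-α4KO iWAT, did not differ from Mmp3 beyond the spread. The same held for Mmp14 at 26 ± 12 and Mmp19 at 24.8 ± 2.41 FPKM in Control iWAT.

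Mmp10, or stromelysin-2, is a near relative of Mmp3 and was close to absent from Control libraries. Its Control iWAT libraries held 1 count in library 1 and 0 in the others, and its Ai-α4KO iWAT libraries stood at 0.514, 1.25, 1.23, 2.26 and 1.01 CPM. Against a floor of 3 counts per Control library, Mmp10 was at least 14.1-fold higher in Ai-α4KO iWAT. No Control iWAT library reached the filter level, so a test says little about it and its p is not given. In BAT it was below the filter on counts, with Ai-α4KO values from 0.0322 to 0.642 CPM and at most 1 count in a Control library. Reads of Mmp10 and Mmp3 could be split between them by the counting, since these paralogs are alike in sequence.

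Mmp13, or collagenase-3, rose from low levels in both depots. In iWAT it went from 0.767 ± 0.326 CPM in Control to 2.65 ± 0.817 CPM in Ai-α4KO, a log2 fold change of 1.77 (SE 0.33, adjusted p = 0.000934). In BAT it went from 0.903 ± 0.351 to 2.44 ± 0.718 CPM, a log2 fold change of 1.39 (SE 0.32, adjusted p = 0.00231). The libraries did not overlap in either depot, although the highest Control BAT library at 1.43 CPM came near the lowest Ai-α4KO BAT library at 1.57 CPM.

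Mmp8, the neutrophil collagenase, rose in BAT from 0.182, 0.626, 0.861, 0.318 and 0.398 CPM in Control to 6.15, 9.55, 6.01, 2.35 and 5.13 CPM in Ai-α4KO. Its log2 fold change there was 3.58 (SE 0.44, adjusted p = 2.41e-05). In iWAT the values were 6.04, 0.684, 0.376, 0.405 and 1.08 CPM in Control and 4.09, 14.2, 4.44, 0.931 and 3.11 CPM in Ai-α4KO, and the genotypes overlapped. The log2 fold change of 1.61 in iWAT did not pass (SE 0.87, adjusted p = 0.138). Control iWAT library 1, the high Control value, is one of those with B cell markers, and without it the log2 fold change was 2.99 and passed (adjusted p = 0.00602).

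Mmp27, a little-studied member next to Mmp8, stood at 0.410, 0.743, 0.227, 0.952 and 0.159 CPM in Control BAT and at 3.33, 6.23, 2.08, 2.80 and 3.73 CPM in Ai-α4KO BAT. On the log2 scale its change was 2.80 (SE 0.46, adjusted p = 0.000228). In iWAT it was 4.40 ± 1.24 CPM in Control and 8.29 ± 2.07 CPM in Ai-α4KO libraries. That log2 fold change of 0.91 had an adjusted p of 0.00885 and was below 2-fold, and it reached 1.03 and passed without Ai-α4KO iWAT library 2.

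**Figure D4:**
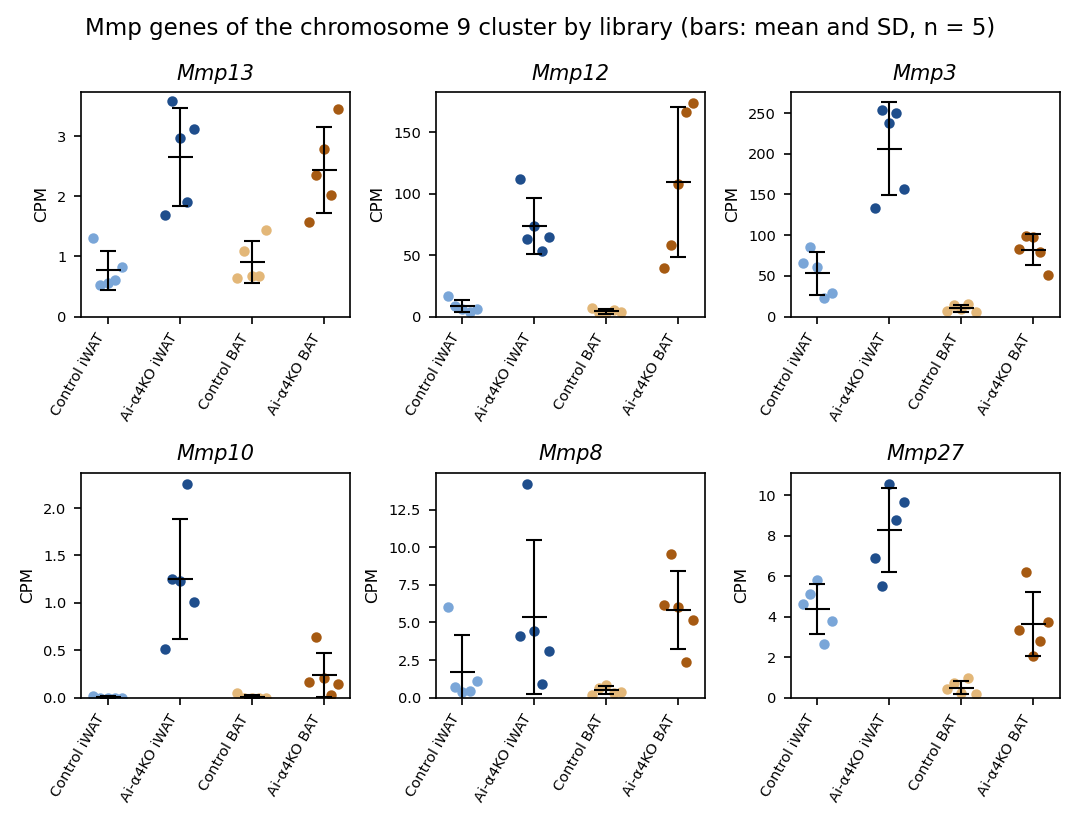
CPM of the 6 chromosome 9 cluster genes that rose in at least 1 depot is plotted by group, in the order of the genes on the chromosome, with 1 point per library and the mean and SD of 5 libraries (bars end at 0). Mmp3 reaches 253 CPM in Ai-α4KO iWAT, whereas Mmp10 stays at or below 2.26 CPM and is near 0 in both Control groups.

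Of the gelatinases, Mmp9 rose in BAT and Mmp2 was called in neither depot. Mmp9, or gelatinase B, is made by neutrophils and macrophages among other cells. It stood at 2.96, 6.49, 6.44, 12.1 and 2.47 CPM in Control BAT and at 28.1, 48.2, 26.5, 12.8 and 38.5 CPM in Ai-α4KO BAT, with a log2 fold change of 2.30 (SE 0.44, adjusted p = 0.000729). The groups just missed each other, at 12.1 and 12.8 CPM. In iWAT it went from 28.4 ± 12 to 41.2 ± 11.3 CPM, which did not pass (adjusted p = 0.152). Mmp2, or gelatinase A, is the stromal gelatinase and the third gene by FPKM in Control iWAT. It stood at 215 ± 69.3 CPM in Control and 197 ± 89.7 CPM in Ai-α4KO iWAT, and at 65.2 ± 11.1 and 63.4 ± 13.5 CPM in BAT. Its log2 fold changes were -0.14 in iWAT (95% interval half-width 0.71) and -0.08 in BAT (half-width 0.33), and the libraries overlapped.

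The membrane-anchored members Mmp14, Mmp15, Mmp17 and Mmp25 were each called in at least 1 depot, Mmp23 was called in neither, and Mmp16 and Mmp24 could not be tested. Mmp14, which cuts collagen at the cell surface and activates MMP2, stood at 16.6, 16.9, 22.8, 29.0 and 16.4 CPM in Control BAT and at 59.5, 110, 55.8, 43.7 and 97.6 CPM in Ai-α4KO BAT. Its log2 fold change there was 1.81 (SE 0.27, adjusted p = 0.000107), with no overlap. In iWAT it was 74.5 ± 31.6 CPM in Control and 91.8 ± 23 CPM in Ai-α4KO libraries (log2 fold change 0.30, adjusted p = 0.37). Mmp25, a lipid-anchored protease of leukocytes, rose from 0.643 ± 0.322 to 2.36 ± 0.529 CPM in iWAT (log2 fold change 1.85, adjusted p = 0.00131). In BAT it rose from 0.284 ± 0.0960 to 1.62 ± 0.798 CPM (log2 fold change 2.48, adjusted p = 0.00039).

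Mmp15, a transmembrane relative of Mmp14, fell in iWAT. Its values there were 15.3, 12.7, 10.9, 12.4 and 14.9 CPM in Control and 6.57, 5.24, 2.89, 4.07 and 3.16 CPM in Ai-α4KO, with a log2 fold change of -1.60 (SE 0.23, adjusted p = 0.00018). In BAT it was 19.4 ± 4.14 CPM in Control and 10.03 ± 1.78 CPM in Ai-α4KO libraries, also without overlap. That log2 fold change of -0.99 had an adjusted p of 0.000664 and lay just inside the 2-fold limit, which it passed without Control BAT library 2 or 4 or Ai-α4KO BAT library 5 (-1.11 to -1.04). Mmp17, a lipid-anchored protease at low level, went from 1.91 ± 0.333 to 0.562 ± 0.203 CPM in BAT (log2 fold change -1.79, adjusted p = 0.000203). In iWAT it went from 1.18 ± 0.252 to 0.389 ± 0.271 CPM with overlapping libraries (log2 fold change -1.60, adjusted p = 0.00885). The iWAT call of Mmp17 was lost in 15 of 21 alternative fits, among them those without Control iWAT library 1, 2, 3 or 5, or without Ai-α4KO iWAT library 2, 3, 4 or 5, where the log2 fold change ran from -1.66 to -1.38 and the adjusted p from 0.0165 to 0.0269.

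Mmp19, a secreted protease expressed in many tissues, rose in both depots. It stood at 90.2, 103, 97.8, 82.7 and 104 CPM in Control iWAT and at 186, 239, 249, 183 and 208 CPM in Ai-α4KO iWAT, a log2 fold change of 1.15 (SE 0.12, adjusted p = 1.7e-05). In BAT it went from 67.4 ± 13.4 to 158 ± 40.1 CPM, a log2 fold change of 1.20 (SE 0.19, adjusted p = 0.000171). The genotypes did not overlap. Leaving out Control iWAT libraries 1 and 4 put the iWAT value at 0.99, just below 2-fold.

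Mmp28, or epilysin, fell in iWAT from 11.3 ± 3.40 to 5.29 ± 1.10 CPM (log2 fold change -1.11, adjusted p = 0.00185). That call was lost in 4 of 21 alternative fits, each with a fold below 2. In BAT it was at 5.74 ± 2.58 and 4.72 ± 2.31 CPM with overlap (adjusted p = 0.439). Mmp11, or stromelysin-3, fell in BAT from 4.05 ± 1.65 to 2.0 ± 0.599 CPM (log2 fold change -1.06, adjusted p = 0.0078). The highest Ai-α4KO BAT library, at 2.95 CPM, was above the lowest Control BAT library, at 2.82 CPM. In iWAT it had a log2 fold change of -0.92 (adjusted p = 0.033). The Mmp11 call in BAT was lost in 12 of 19 alternative fits, among them those without Control BAT library 2, 3 or 4 and without Ai-α4KO BAT library 1, 2, 3 or 4, at -1.12 to -0.78. Mmp23, the remaining tested Mmp gene, had log2 fold changes of 0.18 and 0.34 and did not pass.

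Among the Adamts genes, 1 of 16 tested was called in iWAT, a fall of Adamts12, and 5 of 15 were called in BAT, all higher. That is 6.25% lower in iWAT (against 10.7% of all genes) and 33.3% higher in BAT (against 18.2% of all genes). The 5 include Adamts19, which passed the filter on counts through the Ai-α4KO libraries alone and is not support. With the muscle marker score as a covariate in BAT, Adamts4 and Adamts15 kept their calls. Adamts5, Adamts14 and Adamts19 lost theirs in that fit. The count of 0 higher in iWAT (against 11.3% of all genes) is from edgeR. At an unadjusted p below 0.05 there were 5 higher in iWAT (Adamts1, Adamts3, Adamts4, Adamts5 and Adamts19), and DESeq2 called 1. In BAT edgeR and DESeq2 each called 0 Adamts genes lower (against 13.3% of all genes by edgeR). There 3 (Adamts9, Adamts10 and Adamts16) were lower at an unadjusted p below 0.05.

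Adamts1, Adamts4, Adamts5, Adamts9, Adamts15 and Adamts20 all encode proteases that cut proteoglycans. Of these, Adamts4, Adamts5 and Adamts15 rose in BAT. Adamts1, Adamts9 and Adamts20 were not called there, with log2 fold changes of 0.69, -0.60 and 0.56. This grouping was made after the values were seen. Adamts4, an aggrecanase, stood at 0.865, 0.469, 0.680, 0.847 and 0.398 CPM in Control BAT and at 8.59, 9.04, 4.23, 1.45 and 4.04 CPM in Ai-α4KO BAT (log2 fold change 3.03, SE 0.47, adjusted p = 0.000147). In iWAT it stood at 4.53, 1.83, 2.29, 0.405 and 0.674 CPM in Control and at 9.12, 7.91, 6.12, 4.75 and 4.72 CPM in Ai-α4KO libraries. Those groups did not overlap either, but the adjusted p of 0.0193 missed the threshold at a log2 fold change of 1.73. Without Control iWAT library 1, the highest Control value, Adamts4 was called in iWAT, at a log2 fold change of 2.26 (adjusted p = 0.00339).

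Adamts5, the other main aggrecanase, stood at 21.9, 34.4, 25.8, 35.5 and 19.7 CPM in Control BAT and at 58.6, 54.4, 71.7, 58.9 and 59.3 CPM in Ai-α4KO BAT. Its log2 fold change of 1.11 (SE 0.17, adjusted p = 0.000117) came without overlap. In iWAT it went from 116 ± 21.8 to 186 ± 66.7 CPM, with overlap (log2 fold change 0.68, adjusted p = 0.0321). Adamts15 stood at 8.88, 7.35, 12.5, 8.04 and 8.2 CPM in Control BAT and at 29.8, 48.0, 25.9, 20.2 and 96.0 CPM in Ai-α4KO BAT (log2 fold change 2.26, SE 0.39, adjusted p = 0.000335). In iWAT it was 53.1 ± 32.3 CPM in Control and 63.6 ± 7.41 CPM in Ai-α4KO libraries, with overlap (adjusted p = 0.524).

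Adamts1, which cuts versican and is also induced in inflamed tissue, was at 35.8 ± 6.26 CPM in Control and 65.6 ± 6.88 CPM in Ai-α4KO iWAT without overlap. A log2 fold change of 0.87 (SE 0.13, adjusted p = 0.000227) was below 2-fold and so was not called. In BAT the log2 fold change was 0.69 (adjusted p = 0.0444).

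Adamts2, Adamts3 and Adamts14 are procollagen N-proteinases, which remove the amino-terminal propeptide of fibrillar collagens. Adamts14 went from 1.962 ± 0.883 to 4.54 ± 1.33 CPM in BAT with overlap (log2 fold change 1.17, adjusted p = 0.00751). That call was lost in 11 of 19 alternative fits, among them those without Control BAT library 1, 2, 3 or 5 and without Ai-α4KO BAT library 1, 2, 4 or 5, with adjusted p from 0.0104 to 0.0206. Adamts2, the most abundant of the 3, had log2 fold changes of -0.20 in iWAT and 0.59 in BAT (adjusted p = 0.549 and 0.0146). Adamts3 was at 1.84 ± 1.65 CPM in Ai-α4KO iWAT against 0.785 ± 0.274 CPM in Control (adjusted p = 0.0768).

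Adamts12, which cuts the cartilage protein COMP, fell in iWAT. It stood at 51.3, 54.7, 49.1, 24.9 and 47.2 CPM in Control and at 14, 17.6, 19, 36.3 and 18.9 CPM in Ai-α4KO libraries, so 1 library of each genotype crossed over. The log2 fold change was -1.11 (SE 0.27, adjusted p = 0.00486). The call was lost in 10 of 21 alternative fits, among them those without Control iWAT library 2 or 5 and without Ai-α4KO iWAT library 1, 2, 3 or 5, with adjusted p from 0.0107 to 0.0153. In BAT it was at 8.98 ± 3.22 and 8.40 ± 4.86 CPM (adjusted p = 0.776). Adamts19 was low throughout, with 0, 2, 4, 4 and 1 counts in the Control BAT libraries and 13, 29, 16, 19 and 14 counts in Ai-α4KO BAT. Its Control BAT mean of 0.0881 CPM is below the 3-count level of 0.123 CPM, and no fold is given. In iWAT it was at 0.528 ± 0.288 and 1.37 ± 0.605 CPM (log2 fold change 1.36, adjusted p = 0.0196).

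The remaining Adamts genes tested in both depots, Adamts6, Adamts7, Adamts9, Adamts10, Adamts16 and Adamts20, were not called in either. Their log2 fold changes ran from -1.39 (Adamts20) to 0.63 (Adamts7) in iWAT and from -1.30 (Adamts16) to 0.60 (Adamts7) in BAT. Adamts8 was tested in iWAT alone, where it was not called (log2 fold change 0.17, adjusted p = 0.785), and in BAT it stood at 0.1501 ± 0.103 CPM in Control and 0.432 ± 0.305 CPM in Ai-α4KO libraries, below the filter.

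**Figure D5:**
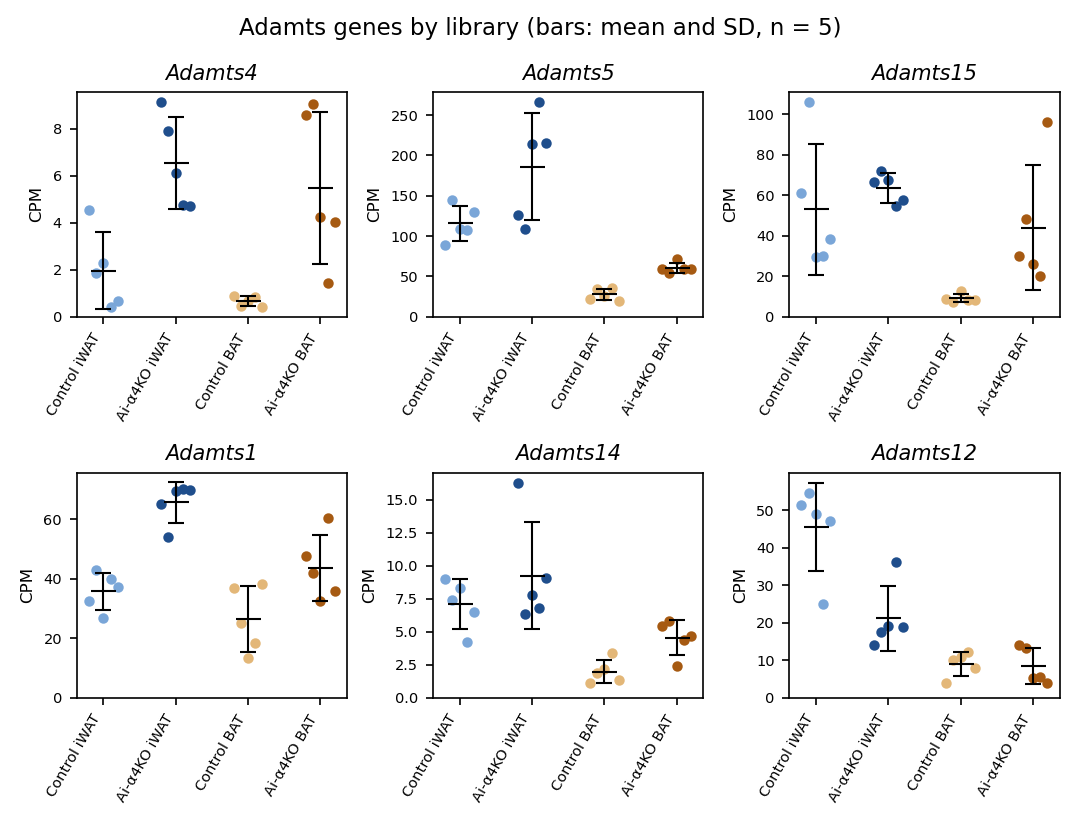
CPM of Adamts4, Adamts5, Adamts15, Adamts1, Adamts14 and Adamts12 is plotted by group, with 1 point per library and the mean and SD of 5 libraries. Adamts5 and Adamts15 are lower in Control BAT than in Control iWAT and rise in Ai-α4KO BAT, while Adamts12 falls in Ai-α4KO iWAT from 45.5 ± 11.8 to 21.2 ± 8.71 CPM.

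Of the 10 genes that could be tested in neither comparison, Mmp1a and Mmp1b had no counts. Mmp7, Mmp16, Mmp20, Mmp21, Mmp24, Adamts13, Adamts17 and Adamts18 had at most 19 counts in any library, and Mmp20 and Mmp24 had a count in 1 library each. At this depth 3 counts per library correspond to a mean of 0.0888 CPM in Control iWAT and 0.123 CPM in Control BAT, and levels below these rest on fewer counts than that floor. Adamts13, the protease of von Willebrand factor, reached 17.7 counts in Control iWAT library 1.

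The second question was how the depots of Control mice differ. Per length, the leading genes in Control iWAT were Timp2 at 115 ± 24.5 FPKM, Timp3 at 80.1 ± 6.26, Mmp2 at 63.8 ± 21.9 and Timp4 at 60.8 ± 22.2 FPKM (SD, n = 5). Mmp2 and Timp4 did not differ beyond their spread. In Control BAT the order was Timp4 at 109 ± 36.5 FPKM, Timp3 at 98.6 ± 16.0, Timp2 at 23.3 ± 8.56 and Mmp2 at 16.7 ± 3.02 FPKM. Timp4 and Timp3 did not differ beyond their spread there, and both stood far above the proteases.

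Of 37 genes tested between the depots, 14 were lower in Control BAT than in Control iWAT (37.8%, against 15.4% of all genes). They were Mmp2, Mmp3, Mmp9, Mmp14, Mmp23, Mmp27, Timp2 and the Adamts genes 2, 5, 8, 12, 14, 15 and 19. The Adamts8 call rests on 3, 5, 3, 8 and 0 counts in Control BAT and was lost in 15 of 28 alternative fits, 12 of them without 1 library. Adamts19 held at most 4 counts in a Control BAT library. The calls of Adamts8 and Adamts19 count in the share above and are not given as support. Mmp27 had the largest difference at a log2 value of -3.11 (SE 0.41, adjusted p = 4e-06). Leaving aside Adamts19, which is below the 3-count level in Control BAT, Adamts15 followed at -2.56, Adamts2 at -2.41 and Mmp3 at -2.39. Timp2 was lower in BAT by a log2 value of -2.09 (SE 0.25, adjusted p = 1.37e-06). No gene was called higher in Control BAT by edgeR, against 7.34% of all genes, with 3 higher at an unadjusted p below 0.05 (Mmp15, Timp3 and Timp4). Timp4 had a log2 difference of 1.03 with overlapping libraries (adjusted p = 0.0112), and DESeq2 called it higher. Of these 14 genes, Mmp3, Mmp9, Mmp14, Mmp27, Timp2, Adamts5, Adamts14, Adamts15 and Adamts19 are among those that rose in Ai-α4KO BAT. Both comparisons share the Control BAT libraries, so this is a side-by-side of values and not a test. Summed fibroblast and progenitor markers were 1800 to 3050 CPM in Control iWAT against 840 to 1260 CPM in Control BAT. Macrophage markers were 1360 to 2330 CPM against 272 to 626 CPM. Endothelial markers went the other way, with 400 to 523 CPM in Control iWAT against 757 to 1080 CPM in Control BAT. The part of these cell types in the depot differences was not tested.

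The third question was whether the effect of genotype differed between the depots, tested as an interaction over all 20 libraries. By edgeR no gene of 37 passed an adjusted p of 0.01, against 4.86% of all genes, and 12 had an unadjusted p below 0.05. DESeq2 called 5, namely Adamts15, Mmp9, Mmp14, Mmp27 and Timp2. The edgeR values of these 5 were the closest to the threshold. The change in BAT exceeded that in iWAT by a log2 value of 1.55 for Mmp14 (SE 0.40, adjusted p = 0.0153) and 2.03 for Adamts15 (SE 0.54, adjusted p = 0.0166). It exceeded it by 1.92 for Mmp27 (adjusted p = 0.0204), 1.14 for Timp2 (adjusted p = 0.0301) and 1.80 for Mmp9 (adjusted p = 0.0385). Timp3 had a difference of -0.86 (adjusted p = 0.0457), that is, a deeper fall in BAT that did not pass. For Mmp19 the difference was 0.07 with a 95% half-width of 0.45, and for Mmp13 it was -0.35 with a half-width of 0.89. A call in one depot and not in the other is therefore not shown to be a difference between depots by this test.

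Other genes of matrix proteolysis were counted by lists written with earlier results of these data known. Their counts stand beside 11.3% higher and 10.7% lower of all genes in iWAT, and 18.2% and 13.3% in BAT. In the plasminogen system, whose proteases help activate MMPs, 4 of 8 tested genes rose in iWAT (50%) and 6 of 8 in BAT (75%). Plaur, the urokinase receptor, rose by log2 values of 2.83 and 3.42, and Serpinb2, an inhibitor of urokinase, by 5.20 and 2.25. Serpina3n, a serine protease inhibitor, rose by 1.30 in iWAT and 4.38 in BAT. Of the lysosomal cathepsins and their cystatin inhibitors, 5 of 9 rose in iWAT and 7 of 10 in BAT, led by Ctss at 2.92 and 5.22 and Ctsc at 2.24 and 3.71. The cathepsins are also enzymes of macrophages, whose markers rose alongside, and the part of these cells in the rise of the cathepsins was not tested.

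Of 10 ADAM proteases, which shed membrane proteins, 2 rose in iWAT (Adam8 by 2.53 and Adam17 by 1.29) and 3 rose in BAT (Adam8 by 3.95, Adam19 by 1.53 and Adam17 by 1.09), which is 20% and 30%. Of 6 ADAMTS-like genes, which resemble ADAMTS proteases without a protease domain, edgeR called none in iWAT and DESeq2 called 1 (Papln, lower). In BAT 2 rose (Adamtsl5 by 1.68 and Adamtsl4 by 1.62) and 2 fell (Papln at -1.85 and Adamtsl3 at -1.71).

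Of 8 other inhibitors and cofactors, Cd44, a hyaluronan receptor that docks MMPs, rose by 3.10 in iWAT and 4.34 in BAT. Pcsk6, a convertase that activates precursors, fell in both with log2 fold changes of -1.66 and -1.65, and Tfpi2 rose by 1.35 in BAT. Among 9 tested substrates and hyaluronan synthases, 1 rose and 1 fell in iWAT, and 5 rose and 2 fell in BAT. Vcan, the versican that ADAMTS proteases cut, rose by 1.95 and 2.95, and Ncan was at -3.80 and -3.24. Of 8 procollagen processing genes, edgeR called 0 in iWAT and 4 higher in BAT, led by Bmp1 at 1.31. In iWAT 3 of them were higher at an unadjusted p below 0.05, and DESeq2 called 0. Of 12 collagen genes, 3 or 25% rose in BAT (Col3a1 by 1.66, Col1a2 by 1.29 and Col5a2 by 1.12). In iWAT edgeR and DESeq2 called 0 collagen genes, with 1 higher and 2 lower by edgeR at an unadjusted p below 0.05.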

How the data were processed

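RNA was measured in 20 libraries, 5 of each genotype and tissue, made with a stranded mRNA kit and read as pairs of 150 bp. In the deposited table each of 25219 genes has an expected count per library, not normalized by the authors. Of the nonzero counts, 76.7% were whole to within 1e-6. The authors also deposited FPKM values, used here for levels between genes. The submitters' processing notes name bcl2fastq 2, STAR 2.5.3a and mm10. The counting tool, annotation and use of strand are not given in the sources used here. Of the 46 genes, all matched RefSeq by identifier and symbol.

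The members and gene lists were chosen with earlier results of these data known. Expected counts were rounded and tested in R 4.3.3 with edgeR 4.0.16 (filterByExpr, TMM, quasi-likelihood test with Benjamini-Hochberg adjustment over all genes tested) within each tissue. The interaction and the Control depots were fitted over all 20 libraries. A call required an adjusted p below 0.01 and a fold of at least 2, except for the interaction, which needed the adjusted p alone. Totals ran from 24023371 to 50384446 counts. CPM uses TMM factors of the 20 libraries. Floors of 3 counts cover counting error only. The labels do not say whether libraries are separate mice or whether 1 mouse gave both tissues, so p-values measure the spread between these libraries. Genes named with values are the members called in a genotype comparison, the Timp genes, members under the filter, and up to 3 called genes per list and tissue. Other members named (Adamts1, Adamts2, Adamts3, Mmp2 and Mmp23 and those named by range) were added after their values were seen.

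The alternatives were DESeq2 1.42.0, RLE factors, library sizes alone, no filter, an adjusted p below 0.05, limma 3.58.1 on log2(FPKM + 1) and log2(FPKM + 0.1), a replicate block, B cell and muscle marker scores as covariates, and leaving out libraries. Leaving out the 4 iWAT libraries with markers of other tissues was chosen after seeing the data. The script was tested on simulated data.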

Additional observations from a re-analysis of the deposited data

Results flagged for a closer look

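In groups of 5 libraries, 7 of 140 groups had a library far from the other 4 by Dixon's test, and about 1 in 20, or 7, are expected by chance. Timp4 in Ai-α4KO iWAT library 1 was at 49.3 CPM against 24.4 to 27.6 CPM in the other libraries of its group. Timp3 in Control BAT library 3 was at 438 CPM, below the others at 597 to 670 CPM. Adamts12 in Control iWAT library 4 was at 24.9 CPM against 47.2 to 54.7 CPM, and Mmp17 in the same library was at 0.752 CPM against 1.20 to 1.40 CPM. Adamts7 in Ai-α4KO iWAT library 1 was at 6.06 CPM against 1.98 to 2.58 CPM. Adamts1 in Ai-α4KO iWAT library 2 was at 53.8 CPM against 65.2 to 70.0 CPM. Mmp10 in Control iWAT library 1 was at 0.0212 CPM, which is 1 count, and the other Control iWAT libraries had 0. Control iWAT library 4 and Ai-α4KO iWAT library 1 are those with skeletal muscle markers, and the part of these markers in the values was not tested.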

How the results depend on the processing

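Over 47 single-gene results and 941 alternative values, 846 kept direction and side of the threshold, 71 lost a call, 17 gained one and 7 changed sign. Timp1, Timp4, Mmp3 and Mmp12 kept their calls in both depots, and Timp3, Mmp8, Mmp14, Mmp19, Mmp27 and Adamts15 theirs in BAT, in every alternative run for them. The 7 genes higher in iWAT became 4 with limma on log2(FPKM + 1), and ranged from 7 to 9 without 1 library. The 6 lower in iWAT became 2 with library sizes alone and with limma on log2(FPKM + 1), 3 with limma on log2(FPKM + 0.1), and 3 to 6 without 1 library. The 16 higher in BAT became 10 with the muscle marker score, whose values do not overlap between the genotypes. They became 11 with limma on log2(FPKM + 1), and ranged from 15 to 16 without 1 library. The 4 lower in BAT became 2 with limma on log2(FPKM + 1), and ranged from 3 to 5 without 1 library. The smaller counts with limma on log2(FPKM + 1) stand beside a pseudocount that shrinks low genes. The interaction count of 0 became 5 with DESeq2, 6 at an adjusted p below 0.05 and 1 with limma on log2(FPKM + 0.1). It ranged from 0 to 2 without 1 library, with 1 without Control iWAT library 4, Ai-α4KO iWAT library 1 or Control BAT library 4, and 2 without Ai-α4KO BAT library 4. The 0 higher in Control BAT became 1 (Timp4) with DESeq2, at an adjusted p below 0.05 and with the replicate block, and ranged from 0 to 1 without 1 library. The 14 lower in Control BAT became 11 with limma on log2(FPKM + 1), 17 with DESeq2 and 18 at an adjusted p below 0.05. They ranged from 13 to 16 without 1 library. The causes of these changes were not tested. The sign changed for results that were not called. Adamts12 in BAT went from -0.14 to 0.17 with library sizes alone, 0.05 and 0.04 with limma at pseudocounts of 1 and 0.1, and 0.05 and 0.04 without Ai-α4KO BAT library 4 or 5, in a range of -0.39 to 0.05 without 1 library. Adamts15 in iWAT went to -0.03 without the 4 iWAT libraries, and Timp2 in iWAT to -0.09 without Control iWAT libraries 1 and 4. With library sizes alone the median of all genes moved to 0.134 in iWAT, 0.232 in BAT, -0.228 between the Control depots and 0.119 in the interaction, and with upper-quartile factors the depot median was -0.118.

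With the replicate number of the titles as a block, iWAT gave 9 higher and 4 lower genes and BAT gave 15 higher and 3 lower, and 13 were lower in Control BAT (without Adamts8). Same-numbered libraries of the genotypes deviated with correlations of -0.451 to 0.134 for iWAT and -0.147 to 0.215 for BAT, and same-numbered iWAT and BAT libraries with -0.081 to 0.221 in Control and -0.265 to 0.244 in Ai-α4KO, so the libraries share a number and no pairing was used. Between genotypes 1 of 10 numbers correlated best with itself, and between depots 4 of 10.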
